A study of Homo sapiens with 6 samples.

Results

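HERVH is a family of human endogenous retroviruses, and the 6 repeat names followed here are its internal proviral sequence (HERVH-int) and its long terminal repeats (LTR7, LTR7A, LTR7B, LTR7C and LTR7Y). The members were all loci whose repeat name was exactly 1 of these 6, which gave 1051 of the 433837 repeat loci listed in the tables. HERVH-int had 663 listed loci, LTR7 had 211, LTR7B had 105, LTR7C had 45, LTR7Y had 26 and LTR7A had 1. A locus without a read in any of the 6 libraries was not listed, so silent copies of the family are not among them. The choice used names only and no measured difference.

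HERVH entered the primate germ line as a gammaretrovirus-like virus, and its copies are now found either as proviruses, with internal sequence between LTRs, or as solitary LTRs. The LTR holds the viral promoter, and transcripts driven by LTR7 elements are well known from human pluripotent stem cells, where HERVH is among the most active endogenous retroviruses. The letter variants are sequence subfamilies of the LTR, of which LTR7Y has been linked to the early embryo and to naive pluripotency. A read counted in an LTR does not show where its transcript started, so the LTR values below are reads in LTR sequence and not promoter activity.

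The cells were HEK293T, an established line from human embryonic kidney, transformed and expressing large T antigen of SV40. In 3 libraries the cells had been transfected by Lipofectamine with 100 nM of a chemically modified chimeric antisense oligonucleotide (ASO) against U7 snRNA, the small nuclear RNA that takes part in processing the 3′ ends of histone mRNAs, and these carry the genotype label of U7 snRNA knockdown. In the other 3 libraries they had received a control ASO directed at GFP, and these are labelled wild type. Total RNA was depleted of ribosomal RNA before library preparation, and the libraries of a group are biological replicates according to the series design text. The study asked how depletion of U7 snRNA changes RNA levels.

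The deposited counts summed to between 2089822 and 2819540 reads in repeats in the U7 ASO libraries, and to between 1926892 and 2025985 in the control ASO libraries. Loci named U7, 16 in number, held 10, 4 and 6 reads in the U7 ASO libraries and 10, 6 and 12 in the control ASO libraries, too few to check the labels. The LTR12 and HERV9 names, another endogenous retrovirus and its LTR, took 3.18%, 2.01% and 2.30% of all repeat reads in U7 ASO cells, against 0.213%, 0.214% and 0.266% in control ASO cells.

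HERVH and LTR7 together were a small and sparsely covered share of these libraries. They held 4319, 4217 and 5905 reads in the U7 ASO libraries, which is 0.207%, 0.180% and 0.209% of the repeat reads, against 4162, 3784 and 4456 reads, or 0.205%, 0.196% and 0.225%, in the control ASO libraries. Expressed as CPM, the read count scaled to a common library size by library totals and TMM factors fitted over all repeat names, the family averaged 1955 ± 195 CPM in U7 ASO cells and 2136 ± 99.4 CPM in control ASO cells (SD, n = 3 each). The groups overlapped. The median listed locus had 6 reads over all 6 libraries, 673 loci (64.0%) had 10 or fewer, and 38 had a single read. In a bulk library a lower share of expressing cells and a lower level per cell cannot be told apart.

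None of the 5 tested names changed at an adjusted p under 0.05, where 2.55% of all 2236 tested names did, 1.52% raised and 1.03% lowered (edgeR quasi-likelihood test on reads summed per name, with Benjamini-Hochberg adjustment over all names). At an unadjusted p under 0.05, 1 of the 5 names was counted, LTR7Y, against 14.6% of all names. DESeq2 on the same counts called 1 of them, again LTR7Y.

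HERVH-int, the internal sequence that encodes the remnants of the viral genes, carried most of the family's reads. It held 2708, 2819 and 3958 reads in U7 ASO libraries and 2690, 2542 and 2961 reads in control ASO libraries. After scaling these were 1280 ± 125 CPM in U7 ASO cells and 1411 ± 40.8 CPM in control ASO cells (SD, n = 3 each), and the groups overlapped. The log2 fold change was -0.14 (SE 0.16, 95% interval -0.48 to 0.20, adjusted p = 0.761).

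The main LTR of the family, LTR7, held 858, 673 and 875 reads in U7 ASO libraries and 718, 552 and 737 in control ASO libraries, or 330 ± 65.5 CPM in U7 ASO cells and 345 ± 45.0 CPM in control ASO cells (SD, n = 3 each). Its groups overlapped, and its log2 fold change was -0.06 (SE 0.21, 95% interval -0.50 to 0.37, adjusted p = 0.927). LTR7B held 307, 364 and 481 reads in U7 ASO libraries and 338, 346 and 318 in control ASO libraries, and its log2 fold change was -0.16 (SE 0.22, 95% interval -0.62 to 0.30, adjusted p = 0.800). LTR7C, with 296, 253 and 470 reads in U7 ASO libraries and 368, 304 and 401 in control ASO libraries, had the lowest value, -0.43 (SE 0.24, 95% interval -0.92 to 0.06, adjusted p = 0.428). The scaled values of LTR7B and of LTR7C also overlapped between the groups. LTR7A, a rare variant, had 3 reads in 1 U7 ASO library and none elsewhere and was not tested.

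LTR7Y stood apart from the other names in its size but did not pass the adjusted threshold. It held 150, 105 and 121 reads in U7 ASO libraries, against 48, 40 and 39 in control ASO libraries. Scaled, these were 70.5, 43.2 and 43.0 CPM in U7 ASO cells, against 25.7, 21.5 and 18.8 CPM in control ASO cells. The groups did not overlap, as for 9.93% of all tested names with the U7 ASO libraries above and 10.2% with them below. The log2 fold change was 1.24 (SE 0.36, 95% interval 0.49 to 2.00) with an adjusted p of 0.0861 in edgeR's quasi-likelihood test, and DESeq2 gave 1.25 with an adjusted p of 0.0386. Within the family, LTR7Y made up 3.47%, 2.49% and 2.05% of reads in U7 ASO libraries, against 1.15%, 1.06% and 0.875% in control ASO libraries.

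A large part of the LTR7Y difference came from 1 of its 26 loci. The mean was higher in U7 ASO cells at 19 of the 26 and lower at 7. More loci were higher than lower also for names with a negative log2 fold change. These counts were 387 and 276 for HERVH-int, 134 and 77 for LTR7, 67 and 38 for LTR7B, and 24 and 21 for LTR7C. LTR7Y_dup2_3499900 alone accounted for 15.6 of the 30.3 CPM by which the LTR7Y means differed, or 51.5%. It held 33.0% of the LTR7Y reads in U7 ASO cells, against 6.30% in control ASO cells. Without it the log2 fold change of LTR7Y was 0.77 (adjusted p = 0.401). Of the other 25 loci, LTR7Y_dup17_3104179 had 10, 8 and 12 reads in U7 ASO libraries and none in control ASO libraries. LTR7Y_dup11_1820387, the only other LTR7Y locus with enough reads to test, had 9, 17 and 16 reads in U7 ASO libraries and 19, 1 and 1 in control ASO libraries, so its groups overlapped. In all, 14 of the 26 LTR7Y loci (53.8%, against 45.7% of all listed loci) had reads in U7 ASO cells and none in control ASO cells, and 3 (11.5%, against 26.8%) had the opposite pattern.

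**Figure D1:**
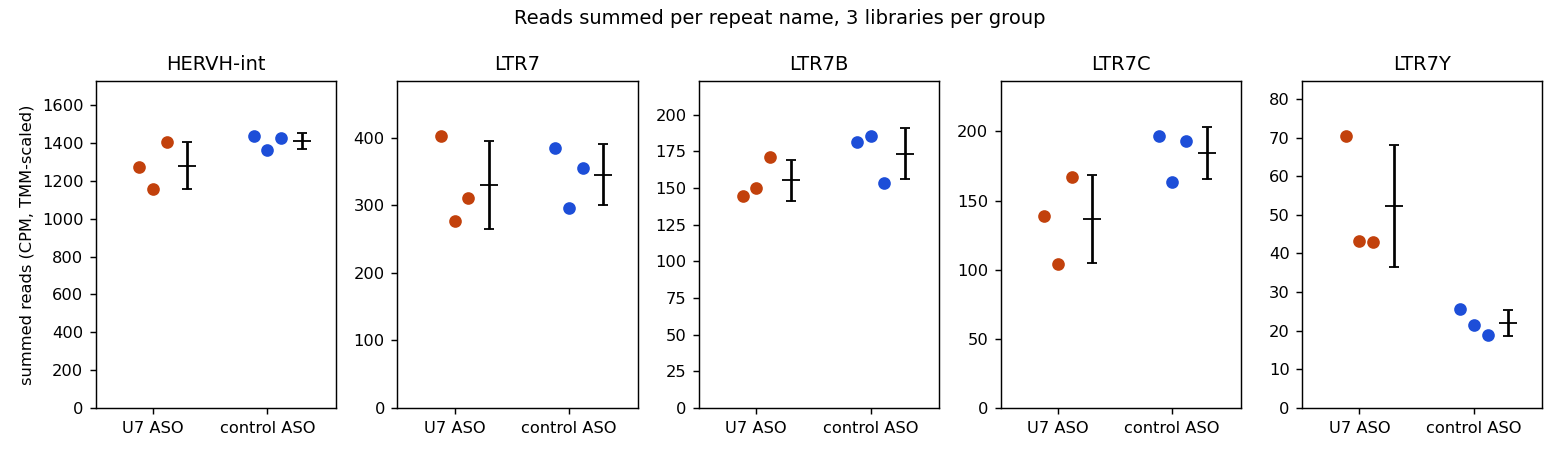
Reads summed per repeat name (vertical axis, TMM-scaled CPM from 0) in each of 3 U7 ASO and 3 control ASO libraries, with 1 panel per tested name. Points are libraries and bars are the mean ± SD; the groups overlap for HERVH-int, LTR7, LTR7B and LTR7C, while the LTR7Y libraries lie between 43.0 and 70.5 CPM in U7 ASO cells and between 18.8 and 25.7 CPM in control ASO cells.

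Single loci were compared with the same test over all 14380 loci that passed a filter on low counts. The filter passed 85 of the 1051 HERVH and LTR7 loci (8.09%, against 3.31% of all listed loci), of which 61 were HERVH-int, 8 LTR7, 7 LTR7B, 7 LTR7C and 2 LTR7Y. These 85 loci held 55.0% of the family's reads in U7 ASO cells and 68.9% in control ASO cells. The other 966 were not tested.

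At the locus level 10 of the 85 were raised in U7 ASO cells, or 11.8%, where 4.49% of all tested loci were. In the other direction 2 were lowered, or 2.35%, where 0.473% of all tested loci were, and 73 were not called. Called in either direction were 12 of the 85, against 4.96% of all tested loci. Of the 10 raised loci, 8 had no read in any control ASO library. A locus with no control read passes the filter only through its U7 ASO reads, and 89.9% of all such loci were raised, so the 8 of 8 found here are read against that share. Among the 77 tested members with a control read, 2 were raised, where 1.88% of all loci of that kind were, and 2 were lowered, where 0.487% were. Over the 85 loci the median log2 fold change was -0.29 and 53 values were negative (62.4%), against a median of 0.06 and 47.3% negative over all tested loci.

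**Figure D2:**
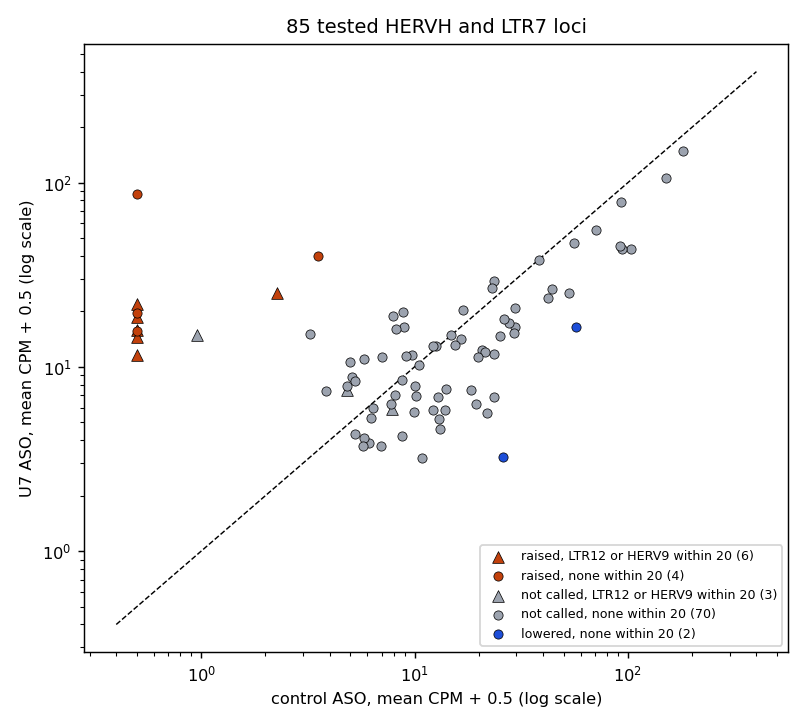
Mean CPM in U7 ASO cells (vertical, log scale) against mean CPM in control ASO cells (horizontal, log scale) for the 85 tested loci, each raised by a small constant so that 0 can be drawn; the dashed line marks equal values. Raised loci are in orange, lowered loci in blue and loci not called in grey, and triangles mark loci with a listed LTR12 or HERV9 locus within 20 running numbers; most of the loci with the highest counts lie below the line, and 8 raised loci lie at 0 in control ASO cells.

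The raised locus with the most reads was HERVH-int_dup279_3104180, a stretch of internal sequence. It had 152, 86 and 202 reads in U7 ASO libraries and none in the control ASO libraries. Against a floor of 3 reads over the control group this is at least 134-fold higher (adjusted p = 2.5e-05), and the call held under each of the 15 alternatives, with a highest adjusted p of 0.0103. This bound, like those below, takes each read as an independent count and would be lower if both reads of a pair were counted. HERVH-int_dup279_3104180 was not an isolated fragment in the tables: with 4 other HERVH-int loci and an LTR7Y locus at each end it formed a run of 7 loci, numbered 3104179 to 3104186. The run as a whole had 200, 124 and 273 reads in U7 ASO libraries and none in control ASO libraries, at least 182-fold higher against the same floor. Of its 597 U7 ASO reads, 440 were those of HERVH-int_dup279_3104180, so this bound is not separate support for the call. A run here means member loci whose running numbers differ by 3 or less. The tables list loci in the order of these numbers but do not state that they follow the genome, and distances in bases are not known.

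The other 7 raised HERVH-int loci were smaller and also had no control reads. HERVH-int_dup382_775900 had 35, 36 and 37 reads in U7 ASO libraries, at least 33.0-fold above control ASO cells (adjusted p = 0.00196). HERVH-int_dup117_2576859 had 26, 17 and 56 reads in U7 ASO libraries, at least 30.3-fold higher (adjusted p = 0.00481). HERVH-int_dup215_1396980 had 18, 36 and 38 reads in U7 ASO libraries, at least 28.1-fold higher (adjusted p = 0.00512). For HERVH-int_dup27_1234410, HERVH-int_dup259_299550, HERVH-int_dup23_4933796 and HERVH-int_dup186_574982 the bounds ran from 17.1-fold to 23.5-fold and the adjusted p from 0.00948 to 0.0499. The 8 runs that hold the raised HERVH-int loci contain 20 further member loci, 12 of internal sequence and 8 of LTR, and 7 of the 8 runs include an LTR. These 20 neighbours, none of them tested, were chosen for lying beside loci without control reads, so they are not separate support for those loci. Reads in U7 ASO cells alone were found at 47.4% of all members and 45.7% of all listed loci. The 20 neighbours had 414 reads in U7 ASO cells and 0 in control ASO cells. They include the 3 LTR7Y loci LTR7Y_dup17_3104179, LTR7Y_dup18_3104186 and LTR7Y_dup5_2576860, with 59 reads in U7 ASO cells.

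The remaining 2 raised loci were LTRs with reads in both groups, and each stood alone, with no other member within 3 running numbers. LTR7_dup22_1897272 had 77, 28 and 95 reads in U7 ASO libraries, against 12, 0 and 2 in control ASO libraries (log2 fold change 3.66, SE 0.89, adjusted p = 0.0246). LTR7Y_dup2_3499900 had 51, 20 and 53 reads in U7 ASO libraries, against 4, 4 and 0 in control ASO libraries (log2 fold change 3.75, SE 0.93, adjusted p = 0.0284). For both loci the U7 ASO libraries were all above the control ASO libraries. The highest adjusted p over the 15 alternatives was 0.258 for the LTR7 locus and 0.294 for the LTR7Y locus. The size for LTR7_dup22_1897272 rests on control ASO replicate 1, which holds 12 of its 14 control reads: without it the log2 fold change was 5.77, and without any other single library it was between 3.11 and 4.05. For LTR7Y_dup2_3499900 it ran from 3.13, without control ASO replicate 3, to 4.18.

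Both lowered loci were internal sequence. HERVH-int_dup28_1235536 had 24, 32 and 24 reads in U7 ASO libraries, against 98, 56 and 108 in control ASO libraries. It averaged 16.0 ± 3.42 CPM in U7 ASO cells and 56.5 ± 16.3 CPM in control ASO cells (SD, n = 3 each), on the scale of the locus table, with -1.81 for the log2 fold change (SE 0.43, adjusted p = 0.0225). HERVH-int_dup15_4455210 had 2, 6 and 6 reads in U7 ASO libraries, against 38, 26 and 54 in control ASO libraries (log2 fold change -3.16, SE 0.73, adjusted p = 0.0177). The groups did not overlap for either locus. The other loci of their runs overlapped between the groups. The 4 neighbours of HERVH-int_dup28_1235536, numbered 1235535 to 1235541, had 16, 0 and 16 reads in U7 ASO libraries and 5, 24 and 10 in control ASO libraries. The 11 neighbours of HERVH-int_dup15_4455210, which with it form the longest run of the family, had 48, 74 and 34 reads in U7 ASO libraries and 59, 73 and 70 in control ASO libraries.

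Most of these calls were lost when a U7 ASO library was left out, and fewer of the raised ones when a control ASO library was. Without U7 ASO replicate 1 only HERVH-int_dup279_3104180 was still called raised; without U7 ASO replicate 3 it and HERVH-int_dup382_775900 were, and without U7 ASO replicate 2 these and HERVH-int_dup117_2576859 were. Leaving out control ASO replicate 1, 2 or 3 kept 8, 6 or 7 of the 10 raised loci. Of the 2 lowered loci, HERVH-int_dup28_1235536 was still called without control ASO replicate 2, and neither was called without any other single library.

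**Figure D3:**
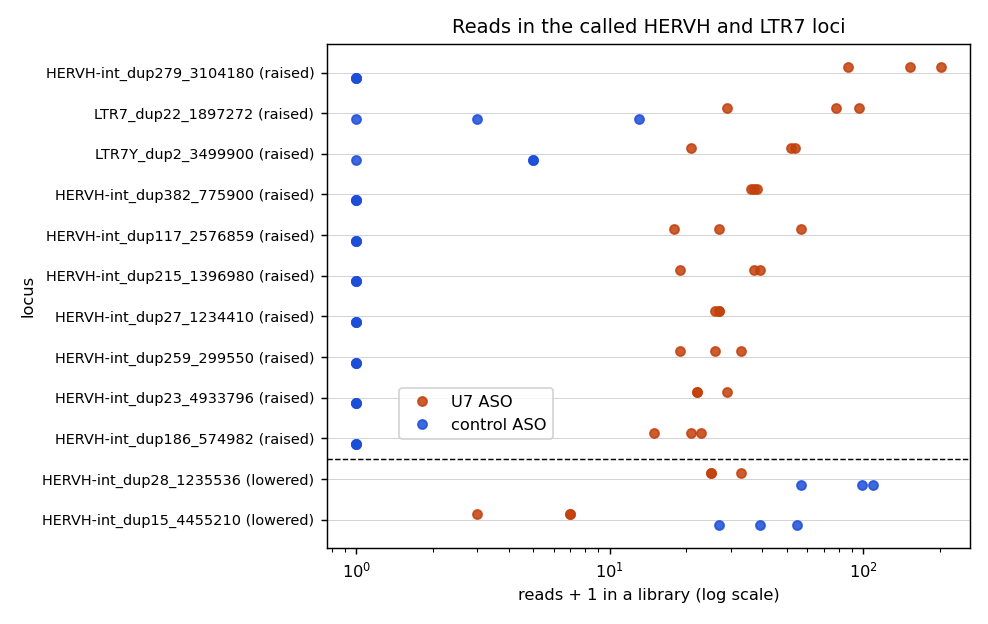
Reads plus 1 (horizontal, log scale) in each library for the 10 raised and 2 lowered loci, with U7 ASO libraries in orange and control ASO libraries in blue; identical counts fall on 1 point. The 8 raised HERVH-int loci have no control reads, and the dashed line separates the lowered loci, for which U7 ASO counts run from 2 to 32 and control ASO counts from 26 to 108.

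The copies with the most reads were mostly not called. Of the 10 loci with the most reads over all libraries, 9 had a negative log2 fold change, and none of the 9 was called. The exception was HERVH-int_dup279_3104180, and the median of the 10 was -0.43. Negative values made up 62.4% over the tested members and 47.3% over all tested loci. The share among loci of other names with as many reads was not computed. The leading locus, HERVH-int_dup105_2247902, had 269, 180 and 291 reads in U7 ASO libraries and 265, 238 and 330 in control ASO libraries, a log2 fold change of -0.29 (adjusted p = 0.853). Its neighbour HERVH-int_dup106_2247903 had 237, 139 and 150 reads in U7 ASO libraries and 272, 164 and 256 in control ASO libraries, a log2 fold change of -0.50 (adjusted p = 0.684). Both overlapped between the groups. LTR7_dup22_4996151, with no other listed member within 3 running numbers, also overlapped (log2 fold change -0.25, adjusted p = 0.928). It had 197, 76 and 112 reads in U7 ASO libraries and 138, 132 and 155 in control ASO libraries. Of the rest, LTR7C_dup3_4126972, HERVH-int_dup148_3397933 and HERVH-int_dup118_3036269 had values of -0.36, -0.25 and -1.08 with adjusted p between 0.427 and 0.935.

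For 3 of these 10 loci every U7 ASO library was below every control ASO library, as for 8.36% of all tested loci, although the test did not call them. HERVH-int_dup201_2052533 had 61, 67 and 89 reads in U7 ASO libraries, against 166, 140 and 122 in control ASO libraries (log2 fold change -1.12, SE 0.33, adjusted p = 0.0827). LTR7_dup45_159046 had 111, 63 and 38 reads in U7 ASO libraries, against 194, 123 and 155 in control ASO libraries (log2 fold change -1.24, SE 0.42, adjusted p = 0.156). LTR7B_dup20_3397942 had 99, 67 and 56 reads in U7 ASO libraries, against 166, 136 and 116 in control ASO libraries (log2 fold change -1.02, SE 0.37, adjusted p = 0.192). Over the 85 tested members, 13 had all U7 ASO libraries below (15.3%, against 8.36% of all tested loci) and 15 had them above (17.6%, against 12.2%).

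Joined into runs, the 1051 loci made 676 groups of neighbours, of which 492 were single loci, 125 held both internal and LTR sequence, 313 held internal sequence alone and 238 LTR alone. Reads were unevenly spread over them: 5 runs held 28.6% of the family's reads. The largest, 4 loci numbered 2247902 to 2247905 with 11.1% of the reads, had 524, 344 and 492 reads in U7 ASO libraries and 561, 430 and 618 in control ASO libraries, and its scaled values overlapped. The 9 loci numbered 3397931 to 3397942, internal sequence with an LTR7B locus at each end, had 272, 222 and 288 reads in U7 ASO libraries against 405, 400 and 389 in control ASO libraries. That is 156 ± 17.4 CPM in U7 ASO cells and 260 ± 13.9 CPM in control ASO cells (SD, n = 3 each), a ratio of 0.600, with no overlap. The 6 loci numbered 2052530 to 2052535, which also have an LTR7B locus at each end, had a ratio of 0.564, and the 6 loci numbered 159046 to 159052, with an LTR7 locus at each end, had a ratio of 0.535. In both of these runs every U7 ASO library was below every control ASO library. Among single loci this was so for 8.36% of all tested, and a share over runs is not given here. HERVH-int_dup201_2052533 held 645 of the 1077 reads of the first of these 2 runs, and LTR7_dup45_159046 held 684 of the 857 of the second. Sums over runs were not tested, and they include the single loci already described.

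Members listed close to loci of the LTR12 and HERV9 names, whose share of reads was higher in U7 ASO cells, differed from the other members in direction. A listed LTR12 or HERV9 locus lay within 20 running numbers of 66 of the 1051 members (6.28%, against 2.39% of all loci outside the HERVH, LTR12 and HERV9 names). These 66 had 467, 346 and 632 reads in U7 ASO libraries and 90, 72 and 76 in control ASO libraries, or 196 ± 46.2 CPM in U7 ASO cells and 41.2 ± 6.16 CPM in control ASO cells (SD, n = 3 each), a ratio of 4.75 with no overlap. The other 985 had 3852, 3871 and 5273 reads in U7 ASO libraries and 4072, 3712 and 4380 in control ASO libraries. Scaled, they averaged 1759 ± 149 CPM in U7 ASO cells and 2095 ± 95.2 CPM in control ASO cells (SD, n = 3 each), a ratio of 0.840, again with no overlap. As a share of all repeat reads, with no other scaling, the 985 made up 0.184%, 0.165% and 0.187% in U7 ASO libraries and 0.201%, 0.193% and 0.221% in control ASO libraries.

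The higher ratio near LTR12 or HERV9 was also found for other repeats. Loci outside the HERVH, LTR12 and HERV9 names had a ratio of 2.30 where an LTR12 or HERV9 locus was listed within 20 running numbers (10291 loci). Where none was, the ratio was 0.928, with overlapping groups. Those loci held 94.8%, 96.2% and 95.6% of repeat reads in U7 ASO libraries and 98.9%, 98.9% and 98.7% in control ASO libraries. The 0.928 is therefore close to the scaled whole library and does not show how typical repeats away from LTR12 or HERV9 differed. Because listing needs a read in some library, the neighbours themselves depend on the treatment: 22 of the 66 members lay near an LTR12 or HERV9 locus with a control read and had a ratio of 3.99, and 44 lay only near loci without one and had a ratio of 5.65. For the loci outside the 3 families the ratios in these classes were 1.91 and 3.40. With windows of 5, 10 and 50 running numbers the ratio near LTR12 or HERV9 was 8.12, 6.08 and 1.98 for the members, and 4.14, 2.87 and 1.56 for the loci outside the 3 families.

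By name, HERVH-int averaged 127 ± 22.7 CPM in U7 ASO cells and 26.4 ± 1.19 CPM in control ASO cells over its 42 loci near LTR12 or HERV9. Its other 621 loci averaged 1153 ± 103 CPM in U7 ASO cells and 1384 ± 41.6 CPM in control ASO cells. LTR7C was split in the same way, with 25.2 ± 16.7 CPM in U7 ASO cells and 3.68 ± 1.54 CPM in control ASO cells over 5 loci near LTR12 or HERV9. Of the 79, 15 and 91 U7 ASO reads of these 5, LTR7C_dup3_4933797 held 37, 9 and 82. That locus lies in the run of the raised HERVH-int_dup23_4933796. The other 40 LTR7C loci had 112 ± 20.3 CPM in U7 ASO cells and 181 ± 19.0 CPM in control ASO cells. For HERVH-int and LTR7C neither class overlapped between the groups. For LTR7B both classes overlapped, with 2 loci near LTR12 or HERV9 and 103 away. LTR7 and LTR7Y loci away from LTR12 or HERV9 overlapped between the groups, at 308 ± 55.7 CPM in U7 ASO cells and 336 ± 39.1 CPM in control ASO cells for LTR7, and at 33.9 ± 10.5 CPM in U7 ASO cells and 20.6 ± 2.61 CPM in control ASO cells for LTR7Y (SD, n = 3 each). The LTR7Y fold change without its 3 loci near LTR12 or HERV9 was 0.72 on the log2 scale (adjusted p = 0.436).

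Of the 10 raised members, 6 had a listed LTR12 or HERV9 locus within 20 running numbers, as had 3 of the 73 not called and neither of the 2 lowered. These 6 are among the 66 members summed above, so this count is not separate from their ratio. Among all tested loci outside LTR12 and HERV9, 2.97% had such a neighbour, as had 50.5% of those that were raised. Among the raised ones without a control read it was 61.1% (118 of 193). Of the 10 raised members 8 were of that kind, and of the 6 with a neighbour all but LTR7Y_dup2_3499900 were. The neighbour of LTR7Y_dup2_3499900, LTR12C_dup17_3499904, had 34, 11 and 36 reads in U7 ASO libraries and 0, 0 and 14 in control ASO libraries. LTR12C_dup10_1234417, 7 numbers from HERVH-int_dup27_1234410, had 34, 18 and 32 reads in U7 ASO libraries and 0, 6 and 3 in control ASO libraries. LTR12C_dup8_4933793, 3 numbers from HERVH-int_dup23_4933796, had 42, 10 and 18 reads in U7 ASO libraries and 0, 2 and 0 in control ASO libraries. These 6 loci had 7 such neighbours in all, of which LTR12C_dup17_3499904 and LTR12C_dup10_1234417 had enough reads to test and were not called (adjusted p = 0.501 and 0.166), and the other 5 were not tested. The 4 raised members with no such neighbour include the leading one, HERVH-int_dup279_3104180. The part of the LTR12 and HERV9 reads in the members' values was not tested.

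**Figure D4:**
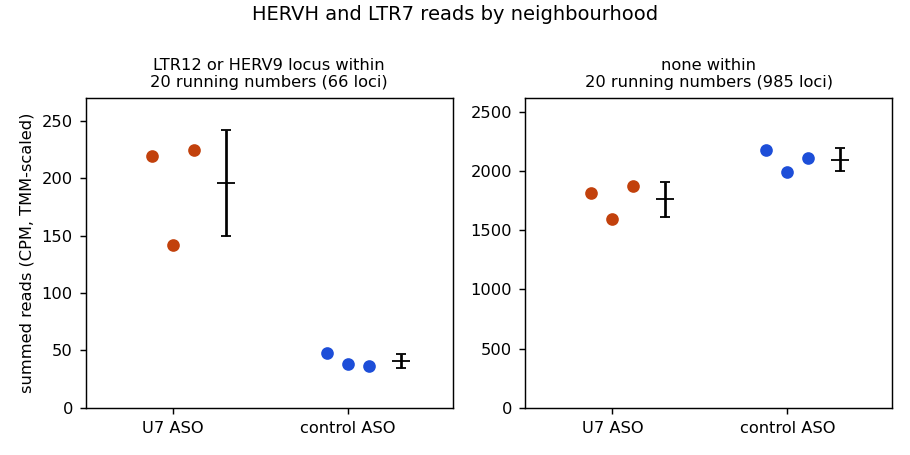
HERVH and LTR7 reads summed per library (vertical, TMM-scaled CPM from 0) over the 66 loci with a listed LTR12 or HERV9 locus within 20 running numbers (left) and over the other 985 (right), with U7 ASO before control ASO in each panel. Points are libraries and bars the mean ± SD; the U7 ASO libraries lie above all control ASO libraries on the left and below all of them on the right.

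The family's reads were spread over more loci in U7 ASO cells. Thinned to 3784 family reads in each library, the lowest total of the 6, the expected number of loci with a read was 354, 419 and 427 in U7 ASO libraries and 273, 314 and 287 in control ASO libraries. The 10 leading loci of each library took 31.4%, 20.6% and 23.3% of its family reads in U7 ASO cells, against 37.6%, 33.7% and 35.8% in control ASO cells. For both measures the groups did not overlap, and the exact two-sided permutation test gave p = 0.1, the smallest p that 3 against 3 allows (0.15 after adjustment over 3 measures). More loci with a read were also found over the whole table at 1926892 reads per library, with 117099, 156595 and 149815 loci in U7 ASO libraries and 95976, 120658 and 108734 in control ASO libraries, although there the groups overlapped. The part of this wider difference in the spread of the family's reads was not tested.

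**Figure D5:**
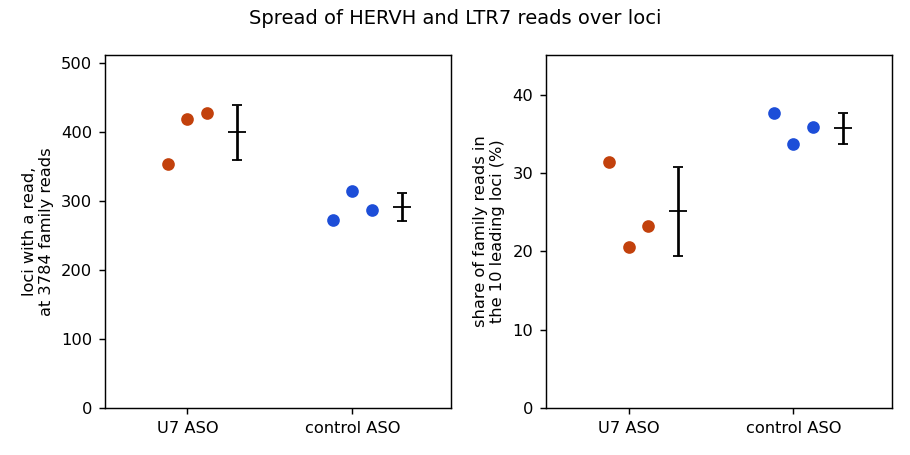
Loci with a read when each library is thinned to 3784 family reads (left, vertical axis from 0) and the share of family reads in the 10 leading loci of each library (right, percent from 0). Points are libraries and bars the mean ± SD; U7 ASO libraries show 354 to 427 loci and 20.6% to 31.4%, and control ASO libraries 273 to 314 loci and 33.7% to 37.6%.

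The balance between LTR and internal sequence did not differ detectably. The log2 ratio of LTR7-named to HERVH-int reads was -0.93 ± 0.16 in U7 ASO libraries and -0.96 ± 0.08 in control ASO libraries (SD, n = 3 each), with p = 0.8 in the exact two-sided permutation test. Levels of the 6 names cannot be ranked per length, because the tables carry no lengths.

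Among 10 names of related gammaretrovirus-like families, 1 was raised, where 1.52% of all tested names were, and none was lowered. It was HERVH48-int, the internal sequence of a separate family despite its name, with 116, 172 and 170 reads in U7 ASO libraries and 17, 27 and 36 in control ASO libraries. Its log2 fold change was 2.17 (SE 0.37, adjusted p = 0.00112), and the groups did not overlap. The other 9 names had log2 fold changes between -0.91 for HERVFH19-int and 1.08 for MER48, with adjusted p between 0.125 and 0.946.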

How the data were processed

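The authors deposited 1 table of raw read counts per library, with 1 row per repeat locus and no coordinates, lengths or sequences. The processing notes of the submitters name STAR 2.5.3a, featureCounts 1.5.0-p1 of Subread, FastQC 0.11.5 and the GRCh38 build. Not given in the sources used here are the repeat annotation, the strand setting, and how read pairs and reads mapping to several places were counted. Reads of near-identical HERVH copies could therefore be split or assigned to another copy, which makes single loci uncertain and summed names less so, and reads of transcripts crossing a repeat on the other strand are not separated. Even numbers made up 73.3% to 79.0% of the nonzero counts, and 81.2% to 85.5% of those of the members.

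The 6 libraries were grouped by their titles. Counts per locus, and counts summed per repeat name, were tested with edgeR 4.0.16 in R 4.3.3 (quasi-likelihood test, TMM scaling, filterByExpr with a minimum count of 10 and a minimum total of 15, Benjamini-Hochberg adjustment over all features, adjusted p under 0.05). Each repeat locus took the place of a gene. The filter removed 20.7% to 31.6% of reads at the locus level and 0.296% to 0.346% at the name level. CPM of single loci and of runs use the locus scaling, and CPM of names and neighbourhoods the name scaling. Fold bounds use a floor of 3 reads over the control group, which takes each read as an independent count. They cover counting error only, and not fully, as reads are not independent molecules and both reads of a pair may have been counted. DESeq2 1.42.0, limma-voom 3.58.1, other scalings, no filter, a replicate block, and leaving out each library were alternatives. The scripts were tested on simulated data. The loci named are all called members, the 10 with the most reads and their runs. Chosen after their values were seen were loci of LTR7Y, HERVH-int_dup7_1219120, LTR7C_dup3_4933797 and neighbouring LTR12C loci. The neighbourhood windows other than 20 were also chosen then. The members and lists were chosen with earlier results of these data known.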

Additional observations from a re-analysis of the deposited data

How the results depend on the processing

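Results were recomputed with other scalings, DESeq2, limma-voom, no count filter, a replicate block and without each library. HERVH-int, LTR7B and LTR7C kept their sign and stayed uncalled under 16 alternatives each. LTR7Y kept its sign under 17, and was called with DESeq2 (1.25 on the log2 scale, adjusted p = 0.0386) and with the replicate block (1.22, adjusted p = 0.0393), so that the number of changed names was 1 under each of these and 0 otherwise. Raised members numbered 2 with limma-voom, between 8 and 11 under the other alternatives that kept all libraries, and 1 to 10 without a library. The 10 raised with no count filter shared 8 with the main result. HERVH-int_dup186_574982 and LTR7Y_dup2_3499900 were lost. HERVH-int_dup7_1219120 and LTR7C_dup3_4933797, which the filter had kept out, were gained. Each had 128 reads in U7 ASO libraries and none in control ASO libraries. Lowered members numbered 0 with no count filter, 2 or 3 under the others that kept all libraries, and 0 to 1 without a library. With no filter 433837 loci were tested, and without a library 21137 to 22874, so the adjustment ran over more loci. The uncalled HERVH-int_dup201_2052533 was called lowered with DESeq2 (adjusted p = 0.0486) and upper-quartile scaling (adjusted p = 0.0402), and LTR7_dup45_159046 with limma-voom (adjusted p = 0.0398) and the replicate block (adjusted p = 0.0361).

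Values near 0 changed sign, and the cause was not tested. The difference in the log2 ratio of LTR7-named to HERVH-int reads was 0.03, against -0.000386 without the locus with the most reads, and ran from -0.0546 to 0.0825 without a library. The log2 fold change of LTR7 ran from -0.221 to 0.0559, that of HERVH-int_dup148_3397933 from -0.569 to 0.157 and that of LTR7_dup22_4996151 from -0.765 to 0.0406 without a library. The neighbourhood ratios, added after seeing the data, ran from 4.39 to 5.40 near LTR12 or HERV9 and from 0.812 to 0.880 elsewhere without a library, and were 4.95 and 0.872 with library totals only. Upper-quartile scaling moved the median log2 fold change of all tested loci to -0.09, against 0.06, and leaving out ribosomal RNA and 7SK gave 10 raised and 2 lowered members.

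At the name level the deviations of same-numbered libraries correlated at 0.114, -0.0304 and 0.119. For libraries with different numbers the correlations ran from -0.153 to 0.0563. Whether the replicate numbers pair the libraries cannot be told from these values. With the replicate block 8 members were raised and 3 lowered. Depth limits the locus results, since 966 of 1051 members were not tested.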

Other observations

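Many copies of the family had reads in 1 group alone. In the U7 ASO group 498 of the 1051 listed loci (47.4%) had reads and none in the control ASO group, against 45.7% of all listed loci, and 243 (23.1%) had reads in the control ASO group alone, against 26.8% of all listed loci. Loci with reads in all 3 U7 ASO libraries and no control read numbered 25 (2.38%, against 1.10% of all listed loci), and loci with reads in all 3 control ASO libraries and no U7 ASO read numbered 7 (0.67%, against 0.32%). Of the 25, 17 were HERVH-int, 5 LTR7, 2 LTR7Y and 1 LTR7C. Reads in all 6 libraries were found at 74 members (7.04%, against 3.20% of all listed loci), and 621 members (59.1%) had reads in a single library, against 62.7% of all listed loci.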
